A study of Homo sapiens with 6 samples.

Results

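The potassium channel genes of WM164, a human melanoma cell line, were taken as every protein-coding row of the expression table whose symbol starts with KCN. This rule gave 97 of the 60504 genes in the table, which held 19664 protein-coding genes. RNA-seq was performed on 3 libraries from cells carrying an empty expression vector (EV) and on 3 libraries from cells carrying an HDAC8 expression vector, and the comparison asked how potassium channel transcripts differed when this histone deacetylase was introduced. All 6 libraries share the BRAFV600E genotype. Per the methods of the study, vectors were transfected by lipid reagent and cells were kept under hygromycin; whether each line was a clone or a pool is not given in the sources used here. The labels call the replicates bioreps, while the methods except sequencing from the assays that were repeated independently, so p-values measure the spread between these samples, which may be technical.

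Potassium channels are membrane proteins that let potassium leave or enter the cell down its gradient and so set the membrane potential, cell volume and the driving force for calcium entry. The KCN symbols cover pore-forming subunits, which are opened by voltage (KCNA to KCND, KCNF to KCNH, KCNQ, KCNS and KCNV) or mostly by internal calcium or sodium (KCNMA, KCNN and KCNT, with the related KCNU), which pass current better inward (KCNJ) or which give a background leak (KCNK), and auxiliary subunits that change gating or delivery to the membrane (KCNAB, KCNE, KCNIP, KCNMB). In melanocytic cells these channels are known for their part in proliferation, volume control and migration.

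The libraries held between 34741083 and 42041462 counts, so that the floor of 3 counts for an unseen gene was 2.57 to 3.27 normalized counts, which covers counting error only. HDAC8 itself did not pass the test. Its normalized counts were 383.8, 404.4 and 478.8 in EV and 484.8, 445.5 and 473.7 in HDAC8 replicates 1 to 3, a difference of 0.15 on the log2 scale (SE 0.28, DESeq2 adjusted p = 0.856), so the groups below are named by their labels. Whether the annotation behind the table would count transcripts made from the vector is not known. The melanocytic markers were present in both groups. Their sum lay between 244960.8 and 328760.5 normalized counts in EV and between 137043.5 and 182217.7 in HDAC8. Of the 8 markers, 5 passed the test as lower and 0 as higher, beside 5.44% and 5.57% of all genes. In bulk RNA, fewer cells of a type and less RNA per cell cannot be told apart. HDAC8 replicate 1 stood further from its group than the other libraries did: the chi-square per degree of freedom was 153.4 and 101.7 against HDAC8 replicates 2 and 3, and between 26 and 47.3 for the other pairs within a group. Its mitochondrial share of counts was 4.46%, against 7.63% to 7.94% in the other HDAC8 libraries and 9.66% to 12.8% in EV.

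KCN transcripts were a small part of each library, and a larger one in HDAC8. They made up 361.5, 379.0 and 373.4 CPM, counts scaled to a common library total, in EV and 556.3, 489.3 and 519.8 in HDAC8. The 3 HDAC8 libraries were all above the 3 EV libraries, a separation for which 3 against 3 samples cannot give an exact two-sided permutation p under 0.10. Of the 97 genes, 14 had no count in any library and 6 more had a total under 10 counts. The remaining 77 were tested, and 56 of these received an adjusted p. The number of KCN genes with at least 10 counts in a library ran from 48 to 52 in EV and from 50 to 55 in HDAC8, so the libraries held similar numbers of detected channels. In every library the 5 most counted KCN genes took 47.8% to 52.7% of the KCN counts.

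Per length, the summed level of all classes was 2615, 2921 and 2938 normalized counts per kb of longest transcript in EV and 4393, 3881 and 4061 in HDAC8. The calcium- and sodium-activated class lay at 428.4, 475.2 and 408.6 per kb in EV and at 1258, 1016 and 1182 in HDAC8. The background-leak KCNK class lay at 141.4, 191.3 and 178.7 per kb in EV and at 593.9, 385.8 and 404.2 in HDAC8. Of these sums, KCNN4 alone had a mean of 185 per kb in EV and 732 in HDAC8, and KCNK5 alone 65.2 and 297. The median log2 fold change of tested genes was 0.60 in the calcium- and sodium-activated class and 0.09 in the KCNK class. For all genes it was 0. In both of these classes every HDAC8 library was above every EV library. Voltage-gated pore subunits summed to 1230, 1354 and 1288 per kb in EV and to 1585, 1525 and 1564 in HDAC8, again without overlap. For the inward rectifiers (370.1, 411.1 and 444.7 in EV, 417.2, 315.4 and 303.3 in HDAC8) and the auxiliary subunits (444.6, 489.6 and 618.5 in EV, 538.9, 639.2 and 607.5 in HDAC8) the groups overlapped. As a share of the KCN level, the calcium- and sodium-activated class took 13.9% to 16.4% in EV and 26.2% to 29.1% in HDAC8, while the inward rectifiers took 14.1% to 15.1% in EV and 7.47% to 9.50% in HDAC8. Of the inward rectifier sums, KCNJ2 alone had a mean of 164 per kb in EV and 37.9 in HDAC8. The median log2 fold change of tested inward rectifiers was 0.47, and -0.02 for those with a mean of at least 50 normalized counts.

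**Figure D1:**
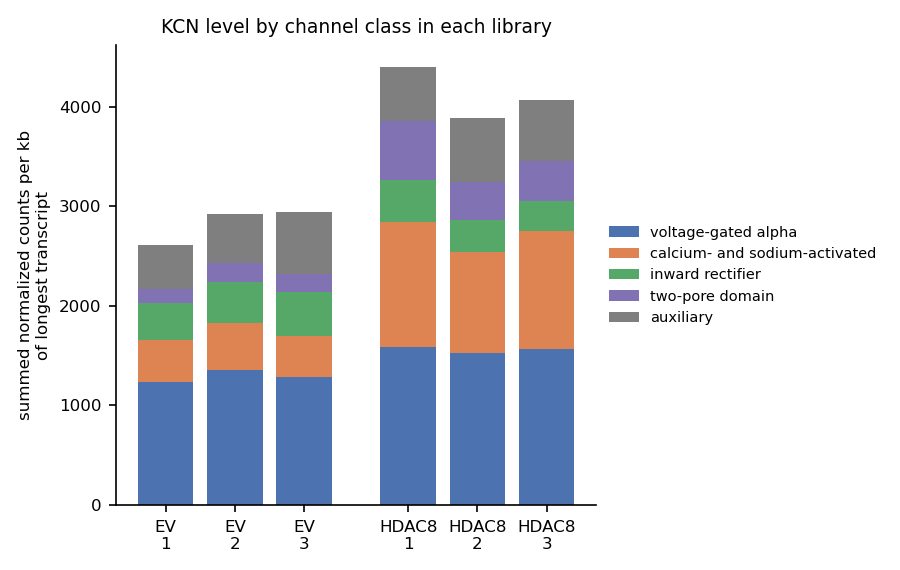
Summed normalized counts per kb of longest transcript (vertical axis) for the KCN genes of each class, stacked, in each of the 3 EV and 3 HDAC8 libraries (horizontal axis). The full height of the bars is 2615 to 2938 in EV and 3881 to 4393 in HDAC8, and the calcium- and sodium-activated segment is the one that is 408.6 to 475.2 in EV and 1016 to 1258 in HDAC8.

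Ordered by level per kb of longest transcript in EV, KCNQ5, a pore subunit of the slowly opening M-type current, stood first at 455, ahead of KCNN2 (213), KCNG3 (199), KCNN4 (185) and KCNJ2 (164). In HDAC8 the order of levels per kb was KCNN4 (732), KCNQ5 (512), KCNN2 (349), KCNK5 (297) and KCNG1 (269). KCNJ2 lay at 37.9 per kb there. The order depends on the length used. With the canonical transcript as the length, the set of the 12 genes with the highest mean level per kb over all libraries stayed the same, but KCNC4 stood second at 482.5 per kb, against 106.5 and rank 8 with the longest transcript.

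Calls required both a DESeq2 adjusted p under 0.05 and a fold change of 0.58 or more on the log2 scale, in either direction. By this rule 8 KCN genes were higher and 3 lower in HDAC8. Higher were KCNS2, KCNJ12, KCNQ3, KCNK5, KCNN4, KCNMA1, KCNAB2 and KCNN2, and lower were KCNA2, KCNJ2 and KCNMB4. The 11 called genes are 19.6% of the 56 with an adjusted p, and 11.0% of all genes with an adjusted p were called. In the upward direction this was 14.3% against 5.57% of all genes, and in the downward direction 5.36% against 5.44%. The KCN share called lower was thus near the background. All KCN members are protein-coding, and protein-coding genes were called more often than all genes. Of 14272 protein-coding genes with an adjusted p, 1035 were called higher and 945 lower. DESeq2 made more false calls on simulated data than its adjusted p states, 33.5% of its calls being false there. In that simulation 200 of 24885 genes were changed, while 2313 of 21021 were called here. The 33.5% is therefore not an estimate for these calls. On the same 6 libraries, 10 of the 11 were also called by edgeR and by limma-voom, KCNMB4 being the exception. Among the 36 KCN genes with a mean of at least 50 normalized counts, 10 were called, which is 27.8%, against 15.1% of protein-coding genes with such a mean. Groups did not overlap for 22 of the 77 tested KCN genes (28.6%, against 24.0% of all tested genes), 15 of them higher in HDAC8, and for 19 of the 36 (52.8%, against 36.9% of protein-coding genes with such a mean). The median log2 fold change of the 36 was 0.49, and that of all protein-coding genes with such a mean was 0.01.

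**Figure D2:**
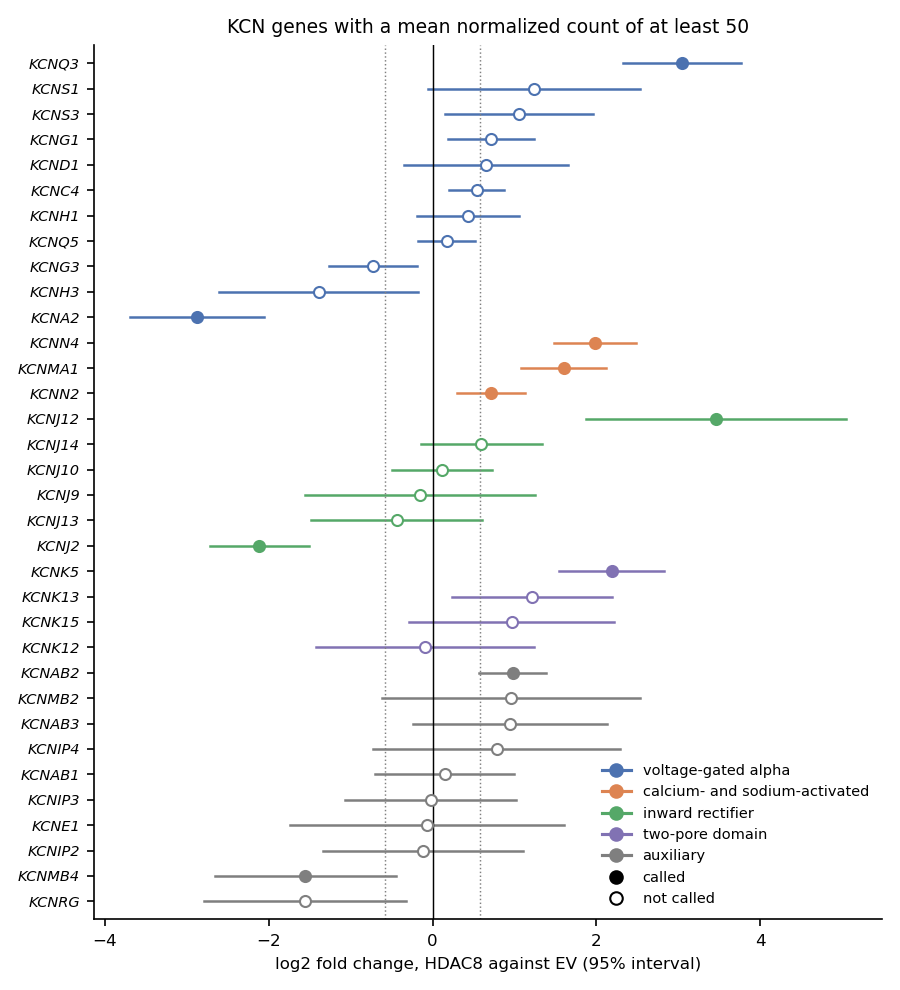
Log2 fold change, HDAC8 against EV, with its 95% interval (horizontal axis) for 34 of the 36 KCN genes with a mean of at least 50 normalized counts, grouped and coloured by class. Filled points are called genes, open points are not, and dotted lines stand at 0.58 above and below 0. All 3 calcium-activated genes plotted lie to the right of the line, and KCNA2, KCNJ2 and KCNMB4 are the filled points on the left.

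All 3 calcium- and sodium-activated genes with a mean of at least 50 normalized counts were called higher, beside 15.1% of protein-coding genes with such a mean called in either direction. KCNN4 encodes the intermediate-conductance calcium-activated channel, which calmodulin opens when internal calcium rises. Its normalized counts were 376.4, 431.5 and 279.8 in EV and 1723.8, 1206.4 and 1363.4 in HDAC8. The lowest HDAC8 library stood well above the highest EV library, and the means of 362.6 ± 76.8 and 1431.2 ± 265.3 (SD, n = 3) differed 3.95-fold (95% interval 2.79 to 5.59, DESeq2 adjusted p = 9.66e-13). The gene lies at chr19:43766533-43780976 on the minus strand (GRCh38). Without HDAC8 replicate 1 its log2 fold change was 1.82, compared with 1.98 with all libraries.

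KCNN4 is also well known from T cells, so leukocyte markers stand beside it. Their sum was 2286 to 3302.4 normalized counts in EV and 4272.8 to 6164.6 in HDAC8. Nearly all of it was CD68, a lysosomal protein that melanoma cells can also express. Of the 4 markers 2 received an adjusted p, and these 2 were called higher, beside 5.57% of all genes. CD3E had 0 counts in EV and 78.7, 91.1 and 50.1 normalized counts in HDAC8 (DESeq2 adjusted p = 1.10e-06). The pan-leukocyte marker PTPRC had 3 counts in HDAC8 replicate 1 and 0 in every other library and KCNA3, the voltage-gated channel of T cells, had 0 counts in all 6 libraries. Whether leukocyte transcripts had a part in the KCNN4 result was not tested.

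KCNMA1 is the pore subunit of the large-conductance channel opened jointly by voltage and calcium. It had 305.1, 232.5 and 273.9 normalized counts in EV and 828.6, 791.7 and 840.7 in HDAC8. Replicates lay close together in both groups, without overlap, and the fold change was 3.03 (95% interval 2.12 to 4.35, DESeq2 adjusted p = 8.59e-08). KCNMA1 spans chr10:76869601-77638369 on the minus strand. The antisense gene KCNMA1-AS1 shares 419 exon bases with it on the opposite strand, and had 5.2, 13.1 and 0 normalized counts in EV and 59.0, 36.9 and 26.1 in HDAC8 (log2 fold change 2.73, DESeq2 adjusted p = 0.19). Since strand-specific counting is not stated, reads of the shared bases cannot be told apart.

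KCNN2, a small-conductance calcium-activated channel, was the most counted of the 3 in EV, with 780.2, 818.1 and 842.3 normalized counts in EV and 1158.6, 1274.0 and 1573.5 in HDAC8. It came after KCNN4 in mean count in HDAC8, but was below KCNN4 in HDAC8 replicate 1 only. All HDAC8 libraries were higher than EV for KCNN2, by 1.64-fold on the fitted scale (95% interval 1.23 to 2.20, DESeq2 adjusted p = 0.0100). This call was lost without EV replicate 1 (adjusted p = 0.0787), EV replicate 3 (0.0519) or HDAC8 replicate 3 (0.143), while its log2 fold change stayed between 0.58 and 0.81 in all alternatives run. The gene lies at chr5:114055926-114496500 on the plus strand. Its relative KCNN1 moved the other way in value, with 12.6, 43.9 and 80.8 normalized counts in EV and 15.4, 0 and 0 in HDAC8 (log2 fold change -3.14, DESeq2 adjusted p = 0.192). KCNN1 overlapped between groups and was called with the replicate block, without HDAC8 replicate 1 and with the unadjusted p.

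Promoter windows of RefSeq transcripts (GRCh38.p14, 250 bases before to 50 after the start) are shown for a called gene of each kind: KCNN4 and KCNMA1, which rose, and KCNJ2, an inward rectifier that fell. Windows were found for 72 KCN genes and for 7 of the 11 called ones. They were searched on both strands for TGANTCA, which AP-1 factors such as JUN and FOS bind, and for the E-box letters CACGTG and CATGTG, which MITF and related factors bind. Matches are in capitals.
KCNN4: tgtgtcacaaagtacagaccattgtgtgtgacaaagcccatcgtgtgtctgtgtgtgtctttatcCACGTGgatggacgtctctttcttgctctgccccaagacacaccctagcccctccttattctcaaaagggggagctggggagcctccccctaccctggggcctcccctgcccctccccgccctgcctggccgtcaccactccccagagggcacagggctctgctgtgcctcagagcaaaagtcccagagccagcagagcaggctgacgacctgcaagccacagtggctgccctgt
KCNMA1: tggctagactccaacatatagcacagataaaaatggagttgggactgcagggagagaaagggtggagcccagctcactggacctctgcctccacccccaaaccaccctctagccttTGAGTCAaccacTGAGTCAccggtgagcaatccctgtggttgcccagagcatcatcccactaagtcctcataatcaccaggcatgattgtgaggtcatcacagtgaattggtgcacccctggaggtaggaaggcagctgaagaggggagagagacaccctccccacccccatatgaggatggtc
KCNJ2: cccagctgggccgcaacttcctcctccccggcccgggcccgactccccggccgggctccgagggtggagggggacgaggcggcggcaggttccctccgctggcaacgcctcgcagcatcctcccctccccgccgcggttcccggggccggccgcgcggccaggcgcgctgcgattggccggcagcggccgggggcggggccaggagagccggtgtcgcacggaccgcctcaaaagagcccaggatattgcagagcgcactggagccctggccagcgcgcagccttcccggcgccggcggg
The KCNN4 window is chr19:43780924-43781223 on the minus strand, and its CACGTG begins at -185 from the start site. The KCNMA1 window is chr10:77350712-77351011 on the minus strand, at a start inside the gene, and its TGANTCA matches begin at -134 and -122. The other KCNMA1 window, at the 5′ start of the gene (chr10:77637759-77638058), held none of the 3 motifs. In the KCNJ2 window, chr17:70169282-70169581 on the plus strand, 78% of bases were G or C and none of the 3 motifs was found.

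Such matches were no more than a description of these windows. TGANTCA occurred in 8.18% of the 110 KCN windows and in 7.71% of all 35116 windows, and CACGTG in 7.27% and 7.26%. CATGTG occurred in 8.18% of KCN windows and 11.1% of all windows. Among the 12 windows of called KCN genes, TGANTCA was found in 1, CACGTG in 2 (KCNN4 and KCNAB2) and CATGTG in 0. None of these motifs was found in the windows of KCNK5 and KCNN2, called higher, or of KCNA2, called lower. The printed windows thus do not stand for all genes that rose or fell.

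KCNK5 encodes an acid-sensitive leak channel that takes part in volume regulation, and it was the called member of the background-leak class. It had 146.8, 295.1 and 298.5 normalized counts in EV and 1515.2, 879.7 and 979.0 in HDAC8. The EV and HDAC8 libraries were far apart, with EV replicate 1 the lowest and HDAC8 replicate 1 the highest. Means of 246.8 ± 86.6 and 1124.6 ± 341.9 (SD, n = 3) differed 4.56-fold (95% interval 2.92 to 7.12, DESeq2 adjusted p = 1.94e-09), and without HDAC8 replicate 1 the log2 fold change was 1.91 in place of 2.19. KCNK5 lies at chr6:39188971-39229475 on the minus strand.

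KCNK13, a leak channel of the halothane-inhibited kind, had 57.7, 113.9 and 82.8 normalized counts in EV and 188.1, 222.2 and 181.9 in HDAC8. The groups did not overlap, and the gene missed the threshold (log2 fold change 1.22, DESeq2 adjusted p = 0.0895). KCNK15 and KCNK12, the other KCNK genes with a mean of at least 50, overlapped between groups.

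Of the 40 voltage-gated pore subunit genes 22 received an adjusted p, and 2 of these were called higher and 1 lower, beside 5.57% and 5.44% of all genes. KCNQ3 had the lowest adjusted p of these. KCNQ3 pairs with other KCNQ subunits to form the M-type channel that damps excitability. It had 66.1, 67.2 and 46.3 normalized counts in EV and 543.0, 495.7 and 444.3 in HDAC8. The lowest HDAC8 library was several times the highest EV library, and the fold change was 8.26 (95% interval 4.99 to 13.7, DESeq2 adjusted p = 2.64e-14). It lies at chr8:132120861-132481095 on the minus strand.

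The partner subunit KCNQ5 had the highest KCN level per kb of longest transcript in EV and stood behind KCNN4 by this measure in HDAC8. KCNQ5 did not pass the test. It had 2665.5, 3165.1 and 3307.1 normalized counts in EV and 2801.2, 3918.4 and 3563.1 in HDAC8 (fold change 1.13, 95% interval 0.884 to 1.43, DESeq2 adjusted p = 0.666). The ratio of KCNQ5 to KCNQ3 counts was 40.3, 47.1 and 71.4 in EV and 5.16, 7.90 and 8.02 in HDAC8. KCNQ5 transcripts thus remained in excess in every library, by a smaller ratio in all HDAC8 libraries.

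KCNA2 encodes a low-threshold delayed rectifier of the Shaker family and was the voltage-gated gene called lower. Its normalized counts were 490.7, 523.0 and 388.1 in EV and 95.8, 50.2 and 44.6 in HDAC8. Every HDAC8 library lay far below EV, at a fold of 0.137 (95% interval 0.0774 to 0.241, DESeq2 adjusted p = 4.95e-10). KCNA2 lies at chr1:110519837-110631474 on the minus strand. KCNA4, of the same family, had 41.9, 23.3 and 71.9 normalized counts in EV and 37.6, 23.6 and 71.9 in HDAC8, with overlap. KCNA10, KCNA7 and KCNA6 had means of 5.9, 4.6 and 1.2 over all libraries. KCNA1, KCNA3 and KCNA5 had 0 counts in all 6 libraries.

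KCNS2 belongs to the silent subunits, which carry no current alone and modify other voltage-gated channels. It had 0, 2.8 and 0 normalized counts in EV and 35.9, 45.1 and 58.8 in HDAC8. EV was at or under the floor in all libraries, with 3 counts in total against 140 in HDAC8, a ratio of 46.3 (95% counting interval 15.5 to 227). On the log2 scale the fitted change was 5.60 (SE 1.51, DESeq2 adjusted p = 0.00318). All 3 EV counts came from EV replicate 2, and without it the fitted value was 7.96, which is no bound. The call was lost without HDAC8 replicate 3 (adjusted p = 0.0621). It lies at chr8:98426958-98432853 on the plus strand.

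The other silent subunits at a mean of at least 50 were separate between groups without being called. KCNS3 had 120.6, 121.4 and 115.3 normalized counts in EV and 364.3, 168.0 and 210.2 in HDAC8 (log2 fold change 1.06, DESeq2 adjusted p = 0.121). For KCNS1 the counts were 37.7, 84.1 and 37.4 in EV and 188.1, 90.1 and 98.0 in HDAC8 (log2 fold change 1.24, DESeq2 adjusted p = 0.238). HDAC8 replicate 1 was the highest library for both.

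KCNG1 had 442.5, 670.6 and 711.3 normalized counts in EV and 1151.8, 1040.5 and 808.0 in HDAC8 (log2 fold change 0.72, DESeq2 adjusted p = 0.0552). KCNG3 went the opposite way in value, with 881.9, 697.6 and 630.5 in EV and 454.0, 369.7 and 511.8 in HDAC8 (log2 fold change -0.73, DESeq2 adjusted p = 0.0598). Both fell just short of a call: KCNG1 was called by edgeR (adjusted p = 0.0488), and both were called when at least 10 counts were required in every library. KCNB2, a delayed rectifier that such silent subunits modify, had 17 counts in HDAC8 replicate 3 and 0 in the other libraries.

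Of the Shaw-type subunits, which give fast delayed rectifiers, KCNC4 had 1499.5, 1696.0 and 1690.5 normalized counts in EV and 2266.8, 2228.5 and 2601.5 in HDAC8. All HDAC8 libraries were higher (DESeq2 adjusted p = 0.0175), and the log2 fold change of 0.54 was under the minimum of 0.58. Without HDAC8 replicate 2 it was 0.584, just over the minimum, and the gene was called (adjusted p = 0.0265).

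The ether-à-go-go family was not called. KCNH3 had 113.2, 207.3 and 135.0 normalized counts in EV and 71.0, 26.6 and 76.2 in HDAC8, all HDAC8 libraries being lower (log2 fold change -1.39, DESeq2 adjusted p = 0.131). KCNH1, a channel often studied in tumours, had 375.4, 400.7 and 302.4 in EV and 588.3, 357.4 and 509.6 in HDAC8, with overlap (log2 fold change 0.43, DESeq2 adjusted p = 0.471).

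Among the 16 inward rectifier genes, 8 received an adjusted p, with 1 called higher and 1 lower, beside 5.57% and 5.44% of all genes. Both called genes encode strong rectifiers that clamp the resting potential. KCNJ2 had 795.9, 873.2 and 987.1 normalized counts in EV and 177.9, 282.7 and 152.5 in HDAC8. All HDAC8 libraries lay far below EV, at a fold of 0.231 (95% interval 0.152 to 0.351, DESeq2 adjusted p = 5.29e-10). KCNJ2 lies at chr17:70168673-70180044 on the plus strand and shares 185 exon bases with KCNJ2-AS1 on the opposite strand.

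KCNJ12 had 2.1, 19.6 and 17.7 normalized counts in EV and 232.6, 117.8 and 84.9 in HDAC8. The HDAC8 libraries were all higher and spread widely, with replicate 1 highest, and the fold change was 11.0 (95% interval 3.65 to 33.2, DESeq2 adjusted p = 4.27e-04). Without HDAC8 replicate 1 the log2 fold change was 2.94 (adjusted p = 0.0299) in place of 3.46. The gene, at chr17:21376357-21419870 on the plus strand, has a near-identical copy in KCNJ18, which had 15 counts in HDAC8 replicate 3 and 0 elsewhere, so the share of reads between them is uncertain.

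The ratio of KCNJ2 to KCNJ12 counts was 380, 44.5 and 55.7 in EV and 0.765, 2.40 and 1.79 in HDAC8. Since KCNJ2 was lower and KCNJ12 higher in every HDAC8 library, this ratio had to separate the groups. The sum of both was 798.0, 892.8 and 1004.8 normalized counts in EV and 410.4, 400.4 and 237.4 in HDAC8, so the combined count was lower in every HDAC8 library. KCNJ10, a rectifier best known from glia, had 353.4, 513.7 and 579.3 in EV and 464.3, 656.5 and 443.2 in HDAC8 and overlapped (log2 fold change 0.11, DESeq2 adjusted p = 0.913). Without EV replicate 1 or HDAC8 replicate 2 its sign turned, to -0.07 and -0.08.

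KCNAB2, a cytoplasmic beta subunit that binds KCNA channels and has an aldo-keto reductase fold, was the auxiliary gene called higher. It had 593.5, 680.8 and 614.7 normalized counts in EV and 1215.1, 1252.5 and 1258.8 in HDAC8. The replicates were tight and the groups far apart, with a fold change of 1.97 (95% interval 1.48 to 2.62, DESeq2 adjusted p = 7.54e-05). It lies at chr1:5990927-6101193 on the plus strand and shares 212 exon bases with NPHP4 on the other strand, whose log2 fold change was 0.42 (adjusted p = 0.396). The ratio of KCNAB2 to KCNA2 counts was 1.21, 1.30 and 1.58 in EV and 12.7, 25.0 and 28.2 in HDAC8. Such a separation follows from the calls of these genes in opposite directions and adds nothing to them. KCNAB1, its close relative, spread widely at 332.4, 279.2 and 581.2 in EV and 198.4, 657.5 and 466.1 in HDAC8 (log2 fold change 0.15, DESeq2 adjusted p = 0.919).

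KCNMB4, the beta subunit of KCNMA1 channels typical of neurons, had 164.6, 119.5 and 164.5 normalized counts in EV and 57.3, 57.4 and 38.1 in HDAC8. All HDAC8 libraries were lower, at a fold of 0.341 (95% interval 0.158 to 0.736, DESeq2 adjusted p = 0.0479). This call sat at the threshold and was lost in 9 of 13 alternatives, with adjusted p up to 0.228, among them edgeR (0.116), limma-voom (0.123) and the fits without any 1 library other than HDAC8 replicate 1 (0.0609 to 0.228). Neuronal markers summed to 59.1 to 185.6 normalized counts in EV and 59.9 to 153.9 in HDAC8, with STMN2 at 0 in all libraries. Of the 4 markers 3 received an adjusted p and 0 were called, beside 11.0% of all genes. Of these markers SYT1 had lower values in HDAC8 without overlap, at 68.2, 45.8 and 14.8 in EV and 0, 0 and 9.8 in HDAC8 (log2 fold change -3.74, DESeq2 adjusted p = 0.099), and its part in the KCNMB4 result was not tested. The gene lies at chr12:70366290-70434292 on the plus strand. The ratio of KCNMA1 to KCNMB4 counts was 1.85, 1.95 and 1.66 in EV and 14.5, 13.8 and 22.1 in HDAC8. KCNMA1 was higher and KCNMB4 lower in every HDAC8 library, so this ratio had to separate the groups.

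KCNRG, a soluble protein that interferes with the assembly of KCNA channels, had 135.3, 84.1 and 303.4 normalized counts in EV and 57.3, 41.0 and 79.5 in HDAC8. The groups were separate by a narrow margin (log2 fold change -1.56, DESeq2 adjusted p = 0.0828), and without EV replicate 3, the highest library, the log2 fold change was -0.89 (adjusted p = 0.646). It shares 1086 exon bases on the same strand with TRIM13, so its counts are uncertain.

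**Figure D3:**
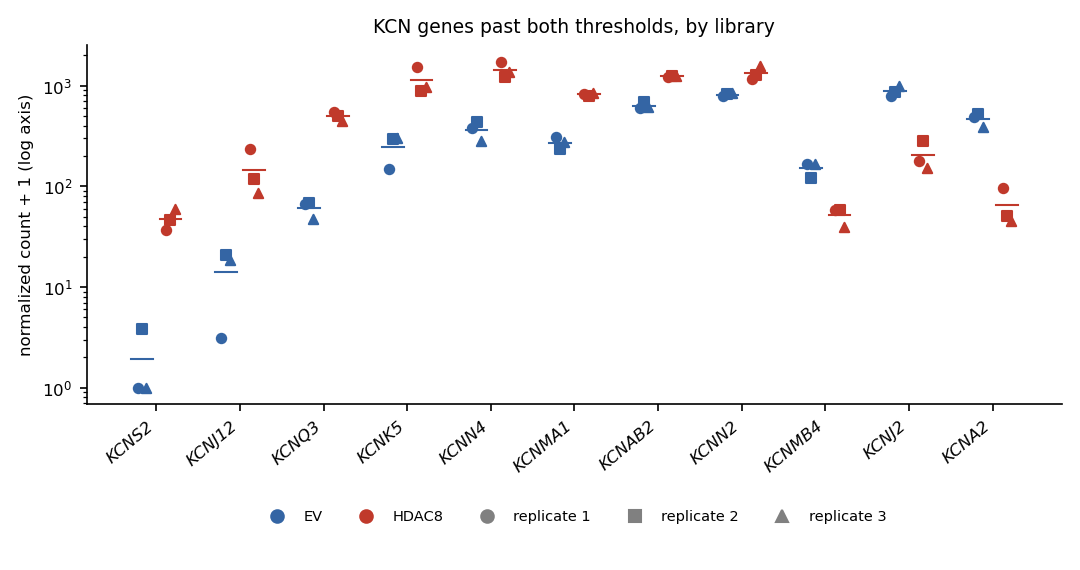
Normalized count plus 1 (vertical log axis) of the 11 called KCN genes in each library, blue for EV and red for HDAC8, with a symbol for each replicate and a short line at the group mean. The 8 genes on the left are higher and KCNMB4, KCNJ2 and KCNA2 lower in every HDAC8 library, and the widest spread within a group is seen for KCNJ12.

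A further 17 KCN genes with a mean of at least 50 normalized counts, KCNQ5, KCNJ10, KCNAB1 and KCNH1 among them, had overlapping groups and were not called. Their log2 fold changes ran from -0.44 to 0.97, 11 above and 6 below 0, with DESeq2 adjusted p between 0.366 and 0.99. The lowest value was that of KCNJ13, a weak rectifier that shares 810 exon bases with GIGYF2 on the opposite strand. The accessory KCNIP, KCNE and KCNMB genes at this level were all among the 17 except KCNMB4.

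Another 47 KCN genes had counts but a mean under 50. Of these, 19 received an adjusted p and were not called, with log2 fold changes between -3.14 and 6.19, SE between 0.83 and 2.97 and DESeq2 adjusted p between 0.173 and 0.989, so differences of several fold were not detectable at this depth. The highest fitted value, which is no bound, was that of KCNC1, with 35 and 9 counts in HDAC8 replicates 1 and 3 and 0 in the other 4 libraries. KCNH2, the cardiac delayed rectifier that is often expressed in tumours, had 1 count in all, and KCNQ1 had 9, all in HDAC8 replicate 1. The muscle markers MYH1, CKM, ACTA1 and TNNT2 summed to at most 21.5 normalized counts in EV and 20.5 in HDAC8. Among the 14 genes with no count were KCND2, KCNC2, KCNJ16, KCNMB1 and 4 KCNK genes.

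The proteins that work beside potassium channels were read from lists by role. The Na+/K+ pump builds the gradient that these channels use, and of its 13 genes 9 received an adjusted p, 1 of them called higher and 2 lower, beside 5.57% and 5.44% of all genes. FXYD3, a small pump regulator, had 4349.6, 5053.5 and 4681.3 normalized counts in EV and 1440.8, 1428.7 and 1684.6 in HDAC8 (log2 fold change -1.63, DESeq2 adjusted p = 1.61e-22). FXYD5 was lower by a log2 fold change of -0.88 (adjusted p = 7.87e-05). FXYD6 was higher, with 22, 19.6 and 45.3 normalized counts in EV and 154.8, 120.8 and 150.3 in HDAC8 (log2 fold change 2.29, DESeq2 adjusted p = 0.00507). All called genes of this list were therefore regulators of the FXYD family.

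Of 7 cation-chloride cotransporters, which move chloride with potassium or sodium, 6 received an adjusted p, and 2 of these were called higher, beside 5.57% of all genes. SLC12A7 had 770.7, 1010.5 and 875.8 normalized counts in EV and 2314.7, 1707.3 and 1803.3 in HDAC8 (log2 fold change 1.13, DESeq2 adjusted p = 2.91e-06). SLC12A4 had 1045.5, 1658.7 and 954.6 in EV and 2856, 1761.5 and 1622.5 in HDAC8, so its groups overlapped (log2 fold change 0.77, DESeq2 adjusted p = 0.0323). Both encode transporters that carry potassium and chloride out of the cell. Of 10 voltage-gated calcium channel alpha subunits 7 received an adjusted p, and 1 of these was called lower, beside 5.44% of all genes. It was CACNA1H, of the low-threshold kind, with 2181.1, 3395.8 and 2395.8 normalized counts in EV and 1181.7, 728.2 and 800.4 in HDAC8 (log2 fold change -1.56, DESeq2 adjusted p = 4.49e-09). None of 15 other partner subunits of potassium channels was called by DESeq2, beside 11.0% of all genes. Of the 15, 10 were tested and 8 received an adjusted p.

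The calls for KCNA2, KCNJ2, KCNK5, KCNMA1, KCNN4, KCNQ3 and KCNAB2 held in all 13 alternatives of normalization, filter, tool, block or left-out replicate, and that for KCNJ12 in all 12 that gave it a value. Leaving out HDAC8 replicate 1 kept all 11 called genes. When the fold change was tested against the minimum of 0.58 rather than against 0, 8 of the 11 were called, without KCNAB2, KCNMB4 and KCNN2.

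**Figure D4:**
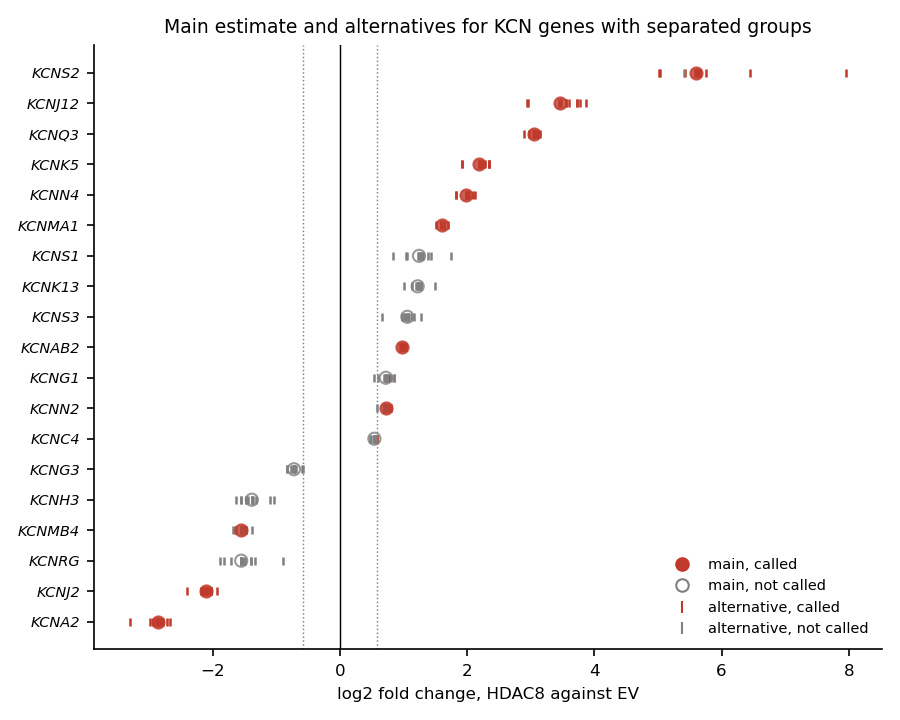
Log2 fold change, HDAC8 against EV (horizontal axis), for 19 of the 20 KCN genes whose groups did not overlap and that were called or had a mean of at least 50 normalized counts. Circles give the value as reported, filled in red where called, and ticks the alternatives, in red where called. No tick lies on the other side of 0 from its circle, and the ticks of KCNMB4, KCNN2 and KCNS2 include grey ones where the call was lost.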

How the data were processed

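RNA-seq libraries of WM164 cells with an empty vector (EV, 3) or an HDAC8 expression vector (3) were analysed, grouped by the labels. The authors trimmed reads with Trimmomatic, aligned them with STAR and estimated reads per gene with RSEM, and the deposited values are expected counts, not scaled between libraries. RSEM shares ambiguous reads between genes, which makes near-identical copies uncertain. The genome build, annotation and strand setting are not given in the sources used here. No columns of other samples were present.

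Expected counts were rounded and compared by the Wald test (two-sided) in DESeq2 1.42.0 under R 4.3.3, since the methods of the study name this tool and the log2 fold change minimum of 0.58, over 26162 genes with a total of at least 10 counts. Of these, 21021 received a Benjamini-Hochberg adjusted p and 5141 did not. Normalized counts are counts divided by DESeq2 size factors (0.918 to 1.17). Intervals are at 95%. Total counts ran from 34741083 to 42041462. On simulated data with 200 changed genes all 3 tools returned the right direction, but DESeq2 made clearly more false calls than its adjusted p states. Of its calls 33.5% were false. For edgeR and limma-voom this was 16.1% and 12.9%, fewer than DESeq2 though still more than stated. These shares depend on how many genes change, 200 of 24885 there, and are not estimates for the real calls. DESeq2 was kept because it had been set as the main test, and its adjusted p-values, those near the threshold included, should be read as too small.

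Ensembl identifiers were matched to GENCODE release 44 (GRCh38) for positions and lengths, where all 97 KCN genes were found, and promoter windows from RefSeq (GRCh38.p14). Rows without a symbol, 3508 genes, took 0.0804% to 0.102% of the counts.

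The members and lists were chosen with earlier results of these data known. Genes were named if called, if separate between groups with a mean of at least 50 normalized counts, or if among the 12 highest per kb. KCNN1, KCNH1, KCNJ13, KCNK12, KCNK15 and genes at low or no counts were named after their values were seen. Alternatives were edgeR 4.0.16, voom of limma 3.58.1, other size factors, other count filters, a replicate block, the unadjusted p, a test against the fold minimum and each replicate left out. The length of the canonical transcript was added after the data were seen. A few genes of the lists are not reported here by name and stay in the counts and sums.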

Additional observations from a re-analysis of the deposited data

How the results depend on the processing

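Counts of called KCN genes, 8 higher and 3 lower, were within 1.5 times under most alternatives run. The exceptions were 6 lower when at least 10 counts were required in every library and 7 lower with the unadjusted p, where 12 were higher. Leaving out replicates gave 6 to 9 higher and 2 to 4 lower KCN genes. Over all genes, 1170 were called higher and 1143 lower, against 292 and 291 in the test against the fold minimum and 1839 and 1856 with the unadjusted p, and 882 to 1223 higher and 753 to 1386 lower with a replicate left out, the 753 being without EV replicate 3. For the named KCN genes, 283 of the alternative values kept sign and side of the threshold, 13 lost a call, 10 gained one and 4 changed sign, the last all for genes that were not called: KCNJ10 ran from -0.083 to 0.26 and KCNAB1 from -0.255 to 0.521 (log2) with a replicate left out. The cause was not tested. Replicates with the same number did not deviate together (correlations -0.03, -0.07 and 0.04), so the numbers do not pair the libraries. A replicate block gave 1075 genes higher and 1078 lower, and 8 and 3 among KCN genes, with KCNMB4 lost and KCNN1 gained. By edgeR and limma-voom, which made fewer false calls than DESeq2 on simulated data, 10 of the 11 called KCN genes were also called, all but KCNMB4. Apart from KCNS2, which was called, KCN genes with a mean under 50 normalized counts had standard errors too wide to show differences of several fold.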

Other observations

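The table also held 21 noncoding or other non-protein-coding rows whose symbol starts with KCN. DESeq2 gave an adjusted p to 9 of them and called 0. The highest in counts was KCNIP4-IT1, with 26.2, 30.8 and 80.8 normalized counts in EV and 134.2, 117.8 and 162.3 in HDAC8 (log2 fold change 1.59, DESeq2 adjusted p = 0.0929), all HDAC8 libraries being higher. KCNQ5-AS1, antisense to KCNQ5, had 35.7, 24.3 and 51.2 normalized counts in EV and 8.6, 47.1 and 77.3 in HDAC8, with overlap. KCNMB2-AS1 had 9.4, 8.4 and 3.0 in EV and 66.7, 45.1 and 0 in HDAC8.

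KCNQ5 alone took 20.1%, 21.3% and 22.4% of the KCN counts in EV and 14.1%, 20.8% and 18.1% in HDAC8, so its share overlapped between groups.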
